A study of Ovis aries with 2 samples.

Results

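The barcodes described here stand for the smooth muscle cells of an implanted sheep vascular graft. They are the graft barcodes that carry smooth muscle transcripts above those of endothelial cells, macrophages and T cells, though some carry few. A barcode was a member if it held at least 1000 UMIs (unique molecular identifiers, each standing for 1 captured transcript) with at most 20% of them from the 13 mitochondrial genes, and if ACTA2, MYH11, CNN1 and TPM2 together gave at least 3 UMIs. That sum also had to be at least 2 times the sum of each of 3 other lists, namely PECAM1, CDH5, VWF, CLDN5, ESAM and TIE1 for endothelium, C1QA, C1QB, AIF1, CSF1R, CTSS and CD163 for macrophages, and CD3D, CD3E, CD3G, CD2 and LCK for T cells. The rule gave 166 members among the 924 graft barcodes within the limits (18.0%, exact 95% interval 15.5 to 20.6%), the 1229 barcodes of the graft library and the 12600 of the series.

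The graft, titled H2R5-ATEV, is a vascular prosthesis that held no cells when implanted, and it was profiled beside a native carotid artery; both came out of sheep aged 1 to 2 years at 12 weeks. The native sample is titled an aorta, while its source names the carotid artery, and the labels state neither the number of animals nor which parts of a vessel each library drew on. Each tissue gave 1 droplet library of cells released by enzymes perfused into the clamped vessel. With 1 library per tissue no test between groups was made, and intervals on counts, ratios and shares cover counting error only.

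Vascular smooth muscle cells contract through an actin and myosin apparatus and also build the collagen, elastin and proteoglycan of the vessel wall. They are known to vary between a contractile state, rich in smooth muscle myosin and calponin, and a synthetic state that makes matrix and the enzymes that remodel it. Fibroblasts of the outer wall share many matrix genes with the synthetic state, so collagen alone does not separate the cell types.

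The members summed to 8319223 UMIs, with a median of 32337 per barcode (1364 to 326397) and 5786 genes. The 758 other graft barcodes within the limits had a median of 24567 UMIs, and by the same kind of rule they held 217 endothelial, 349 macrophage and 50 T cell barcodes, with 142 that met no rule. The same smooth muscle rule gave 72 native barcodes of 6810 within the limits (1.06%, 0.828 to 1.33%), with a median of 6078 UMIs. The libraries shared 7 barcode sequences, none of them a member in either tissue.

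Most members carried several of the smooth muscle markers, and some carried few. ACTA2, the smooth muscle actin of the rule, was found in 161 of 166 members, TPM2 (a tropomyosin) in 160, MYH11 (the smooth muscle myosin heavy chain) in 148 and CNN1 (calponin) in 104. ACTG2, an actin best known from visceral smooth muscle that the rule did not use, was found in 96, and COL1A1, a chain of type I collagen, in 164. After each barcode was thinned to 1000 UMIs, MYH11 was detected in 45.8% of members, 1.38% of endothelial and 3.15% of macrophage barcodes. Their full depths had medians of 32337, 32124 and 30422 UMIs. MYH11 helped choose the members, and the rules for the other groups cap the smooth muscle sum, so this difference follows in part from the rules. On the same footing COL1A1 was detected in 92.2% of members, 20.3% of endothelial and 13.5% of macrophage barcodes. Whether the endothelial and macrophage barcodes made these transcripts or held them as free RNA was not tested.

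Against the other graft barcodes, the members carried most contractile and fibrillar matrix genes at higher levels. Values are summed UMIs per 1000000 UMIs of the group (CPM). The rule chose the members on these same counts, so the contrast is a description and nothing is read from the number of genes that differ. At a ratio of at least 2 after adding 5 CPM, 940 of 16152 genes were higher (5.82%) and 1626 were lower (10.1%). ACTA2 stood at 4801 CPM in members and 236 CPM in the other barcodes, and MYH11 at 747 and 40.9 CPM.

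Of the contractile cytoskeleton list, 19 of 22 measured genes reached 2-fold higher and 0 reached 2-fold lower. The median log2 ratio was 1.89 beside -0.11 over all genes tested. TAGLN (transgelin), an actin-bundling protein, was at 4200.1 CPM in members and 455 CPM in the others, 9.24-fold higher (9.05 to 9.43). Among the others TAGLN stood at 619 CPM in endothelial barcodes, 51.9 CPM in macrophage barcodes and 1633 CPM in the barcodes that met no rule. CALD1 (caldesmon), which restrains actomyosin, was 8.81-fold higher (8.65 to 8.98), and TPM1 (another tropomyosin) was 11.7-fold higher (11.4 to 12.0). Among regulators of contraction, 17 of 25 were at least 2-fold higher and 1 lower. RGS5, which dampens G protein signalling in mural cells, was 14.5-fold higher (13.6 to 15.5), and RYR2, a calcium release channel, 8.25-fold higher (7.81 to 8.71).

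Fibrillar matrix genes were higher in members as well. COL1A1 stood at 12250.4 CPM in members and 1215 CPM in the others, and MGP, an inhibitor of calcification, at 10768 and 1303 CPM. Of the fibrillar matrix list 19 of 23 genes were at least 2-fold higher, with a median log2 ratio of 2.42. COL1A2 was 7.75-fold higher (7.66 to 7.85) and COL3A1 (type III collagen) 6.59-fold higher (6.51 to 6.68). Collagen-processing genes were higher in 12 of 19, with the collagen chaperone SERPINH1 4.19-fold higher (4.08 to 4.31), and proteoglycan genes in 14 of 17 (1, OGN, lower), with VCAN (versican) 6.90-fold higher (6.74 to 7.08) and BGN (biglycan) 4.34-fold higher (4.23 to 4.44). COL4A1, a basement membrane collagen, was 7.29-fold higher (7.16 to 7.43). ELN, the elastin gene, was 2.71-fold higher (2.67 to 2.76), at 2951 CPM in members and 2354 CPM in the endothelial barcodes alone.

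**Figure D1:**
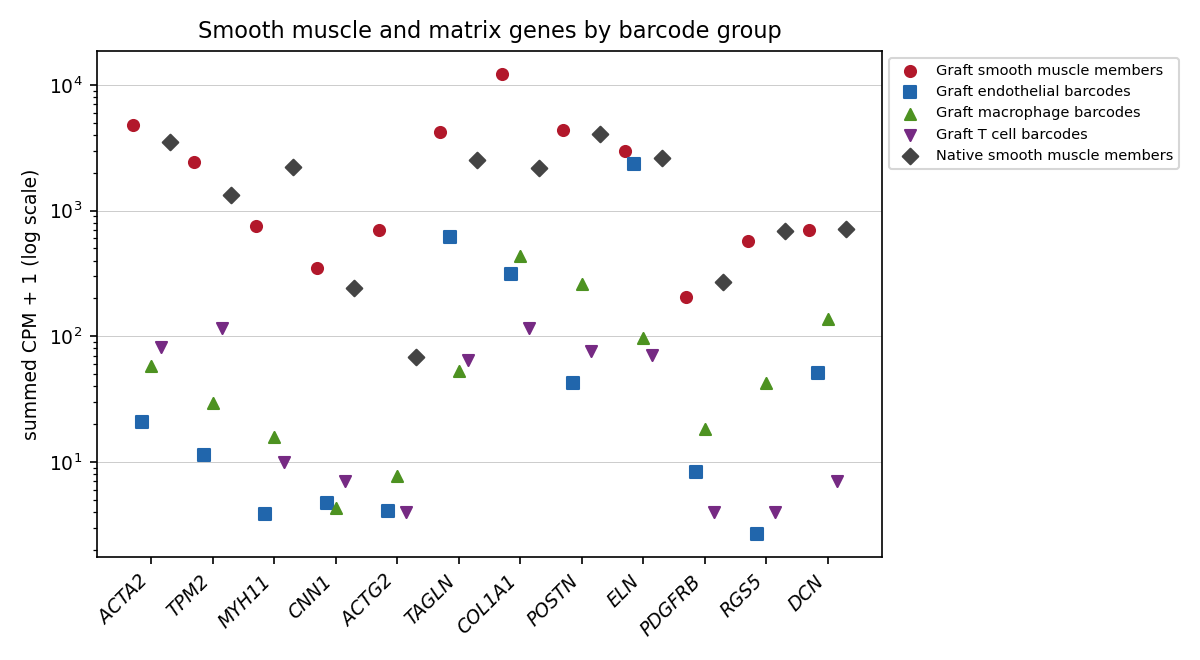
Summed CPM plus 1 (log axis) of smooth muscle, matrix and mural genes in graft members, graft endothelial, macrophage and T cell barcodes, and native members; each point is 1 group of barcodes. MYH11 is at 747 CPM in graft members and 2224 CPM in native members, while COL1A1 is at 12250.4 and 2196 CPM.

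Outside the rule's own genes, the 12 with the highest ratio over the other graft barcodes were DLGAP1, NLGN1, TNC, GRIP1, SLIT3, SYNPO2, ACTG2, SBSPON, NCKAP5, NEXN, MYLK and NRG3. Some belong to the contractile apparatus, namely ACTG2, MYLK (the kinase that activates smooth muscle myosin) and the actin-binding SYNPO2 and NEXN. TNC (tenascin C), a matrix glycoprotein of remodelling tissue, was at 368 CPM in members and 17.0 CPM in the others. DLGAP1, NLGN1 and GRIP1 encode scaffold and adhesion proteins best known from synapses, and DLGAP1 was 23.2-fold higher (21.3 to 25.3). SLIT3, a secreted guidance ligand, was 17.6-fold higher (16.8 to 18.4) and was detected in 142 of 166 members. The 6 with the lowest ratio were FABP4, MSR1, SELP, NOS3, PLEK and the carboxypeptidase M gene, which are best known from endothelial cells, macrophages or other blood cells. FABP4, a fatty acid carrier, was 83.9-fold lower (46.9 to 168) against all other graft barcodes but had a log2 ratio against the endothelial ones alone of 0.080. MSR1 and the carboxypeptidase M gene were likewise higher in members than in endothelial barcodes alone, and SELP and NOS3 higher than in macrophage barcodes alone.

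The mural markers RGS5, PDGFRB, NOTCH3 and MCAM were all higher in members, and 7 of 10 genes of the pericyte list were at least 2-fold higher and 1, STEAP4, lower. NOTCH3, a receptor of mural cells, was 13.8-fold higher (12.3 to 15.5) and PDGFRB, the receptor for PDGF-B, 7.40-fold higher (6.79 to 8.07). The fibroblast list was mixed, with 6 of 14 genes at least 2-fold higher and 5 lower. It summed to 3084 CPM in members and 6201 CPM in the 142 barcodes that met no rule. DPT (dermatopontin) was 9.95-fold higher (9.52 to 10.4) and DCN (decorin) 2.47-fold higher (2.39 to 2.56), although DCN had a log2 ratio of -0.021 when the rule was applied to barcodes thinned to 1000 UMIs. In contrast CLEC3B (tetranectin) was 8.74-fold lower (8.29 to 9.23) and stood at 3052 CPM in the endothelial barcodes.

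Transcripts of other cell types were present in members. The rule itself caps its macrophage, endothelial and T cell sums against the smooth muscle sum, so low values there follow in part from it. The 6 macrophage genes of the rule summed to 524 CPM in members and 9779 CPM in macrophage barcodes, and 83 members held 3 or more such UMIs. The 6 endothelial genes summed to 134 CPM in members and 3925 CPM in endothelial barcodes, with 46 members at 3 or more. Outside the rule, the macrophage list summed to 229 CPM in members and 4548 CPM in macrophage barcodes, with 76 members at 3 or more UMIs. The endothelial list outside the rule summed to 366 CPM in members and 2687 CPM in endothelial barcodes, with 126 members at 3 or more. T cell genes were at 0 in 124 of 166 members, the 3 red cell genes with a symbol were at 0 in all 166, and 4 of 8 skeletal muscle genes were at 0 over all members. The part of shared droplets or free RNA in these values was not tested.

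Per barcode, ACTA2 and MYH11 varied more widely among members than the fibrillar collagens did. In CPM per barcode, ACTA2 had a quartile range of 442 to 6686 around a median of 2348, and MYH11 of 154 to 1255 around 607. COL3A1 had a proportionally narrower one of 3973 to 9614 around 6778, and COL1A1 of 2767 to 11762 around 5807. Some genes sat in few barcodes. The 10% of members with most MMP13 (collagenase 3) held 80.1% of its UMIs, and the corresponding share was 94.1% for MMP12 (macrophage elastase), 76.9% for ACTG2 and 43.1% for ACTA2. MMP13 was detected in 68 of 166 members and at 3 or more UMIs in 46, and 26 of those members also held 3 or more MYH11 UMIs.

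Different genes followed COL1A1 and MYH11 most closely across members. Over the 158 members with at least 5000 UMIs and 8171 genes, the 8 genes with the highest Spearman rho to COL1A1 were COL1A2 (0.93), P3H4 (0.75), RCN1, SPARC, CTHRC1, COL5A1, SERPINH1 and MMP23B (0.70). Those closest to MYH11 were TPM1 (0.71), CALD1 (0.69), CXCL12, SLIT3, PPP1R14A, MAP1B, ACTA2 and ITGA1 (0.63). The points share 1 library and its free RNA, so the coefficients are descriptions.

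To describe the span from contractile to matrix-rich members, each member was given the ratio of COL1A1, COL1A2, COL3A1, COL5A1, COL5A2 and FN1 UMIs to TAGLN, MYL9, MYLK and LMOD1 UMIs, with 1 added to each sum. The ratio was above 1 in 164 of 166 members, with a median of 9.74. Ordered by it, the members were divided into 4 bins of 41, 42, 42 and 41 barcodes, with median ratios of 2.27, 6.60, 13.4 and 40.9 and median depths of 30241, 66658, 30634 and 27137 UMIs. The ordering is a range and the bins are not cell types. The Spearman rho of the ratio with total UMIs was -0.07 over 166 members, and with the ratio recomputed at 1000 UMIs per barcode it was 0.87.

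The ends of the span differed more in contractile than in matrix RNA. The 4 contractile ordering genes summed to 9901, 6481, 3608 and 1157 CPM from the lowest to the highest bin. The 6 matrix ordering genes summed to 21929, 40673, 49664 and 38369 CPM, highest in bin 3. Their medians per barcode were 18569, 34439, 32303 and 34615 CPM, without a peak in bin 3. The sums weight deep barcodes more. Across members the contractile sum and the matrix sum had a rho of 0.12, so the matrix sum did not fall or climb steadily with the contractile sum.

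**Figure D2:**
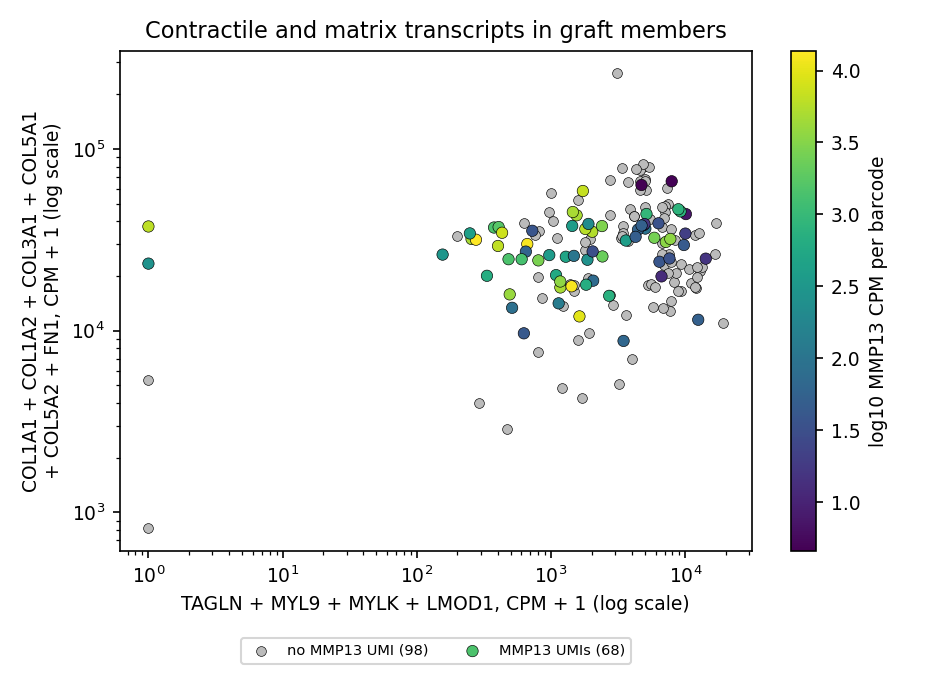
CPM plus 1 per member of the 6 matrix ordering genes (y) against the 4 contractile ordering genes (x), both on log axes, coloured by log10 MMP13 CPM where a member held an MMP13 UMI; each point is 1 of 166 members. Members spread widely along the contractile axis, and the 68 with MMP13 UMIs lie more to its left.

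The smooth muscle genes of the member rule did not enter the ordering, and they too were lowest in the bin with the highest ratio. ACTA2 stood at 9072, 6146, 2685 and 728 CPM in bins 1 to 4, MYH11 at 1795, 721, 540.4 and 119 CPM, and the number of members with a MYH11 UMI was 41, 42, 39 and 26 of 41, 42, 42 and 41. In the high-ratio against the low-ratio bin MYH11 was 15.1-fold lower (12.8 to 17.8) and ACTG2 81.7-fold lower (50.9 to 141), at 12.8 CPM in the high-ratio and 1046 CPM in the low-ratio bin. ACTG2 stood at 1046, 1097, 298 and 12.8 CPM in bins 1 to 4, and so was about as high in bin 2 as in bin 1.

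Of 635 genes at least 2-fold lower in the high-ratio bin (5.56% of 11417), 15 were among the 18 measured contractile genes outside the ordering, with 0 higher and a median log2 ratio of -1.61 beside 0.02 over all genes. TPM1 was 4.97-fold lower (4.68 to 5.29), MYL6 (a myosin light chain) 3.31-fold lower (3.12 to 3.50) and CALD1 2.05-fold lower (1.97 to 2.13). PPP1R14A, an inhibitor of myosin phosphatase, was 9.33-fold lower (7.71 to 11.4). Outside that list, MCAM, an adhesion protein of mural cells, was 4.45-fold lower (3.53 to 5.65), while PDGFRB was 1.59-fold higher (1.36 to 1.86), with a log2 ratio of -0.13 when the rule was applied to thinned barcodes. Regulators of contraction split, with 6 of 24 at least 2-fold lower and 2 higher. The higher ones, named because so few passed, were EDNRA, an endothelin receptor, at 509 CPM in the high-ratio and 51.0 CPM in the low-ratio bin, and KCNMA1, a potassium channel, at 222 and 12.8 CPM.

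The low-ratio bin was also richer in elastin and basement membrane transcripts. ELN stood at 4164, 3765, 2376 and 657 CPM in bins 1 to 4, and COL4A1 at 5749.7, 4949.9, 4158 and 2075 CPM. COL4A2 was 2.79-fold lower (2.58 to 3.01) in the high-ratio than in the low-ratio bin. Of the basement membrane list 4 of 12 genes were at least 2-fold lower and 2 higher. IGFBP7, a secreted growth factor-binding protein of vessel walls, was 2.87-fold lower (2.74 to 2.99), and CXCL12, a chemokine of stromal and smooth muscle cells, 7.36-fold lower (6.31 to 8.63).

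At the high-ratio end, 759 genes were at least 2-fold higher (6.65% of 11417), and genes of the fibrillar matrix, proteolysis and fibroblast lists were among them. Of the genes that set the ordering, COL3A1 stood at 4622, 7280.4, 10193 and 11159 CPM in bins 1 to 4. COL1A1 summed to 5687, 14197, 15488 and 8334 CPM, highest in bin 3. By median per barcode, however, COL1A1 was lower in bin 3 than in bin 2. Within bin 3 it ranged from 0 to 33325 CPM per barcode, and the sums weight deep barcodes more. Of the 17 fibrillar matrix genes outside the ordering 8 were at least 2-fold higher and 5 lower, so this list split as well. POSTN (periostin) and COL6A3 (type VI collagen), chosen for mention after their values were seen, stood at 7181 and 2357 CPM in the high-ratio bin and at 2882 and 388 CPM in the low-ratio bin. FBN1 (fibrillin 1) was 2.60-fold higher (2.38 to 2.84). MGP did not follow the order, with 15090.5, 8069, 9964 and 14667 CPM in bins 1 to 4, and neither did the collagen chaperone SERPINH1, at 1046 CPM in the high-ratio and 1111 CPM in the low-ratio bin.

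The 12 genes with the highest ratio between the ends included 3 metalloproteinases, enzymes that degrade matrix. MMP13 stood at 5.25, 552, 707 and 2189 CPM in bins 1 to 4, and members with 3 or more MMP13 UMIs numbered 0, 14, 8 and 24. Between the ends MMP13 was 417-fold higher (202 to 1038), on 2909 UMIs in the high-ratio and 7 in the low-ratio bin. MMP12 was 107-fold higher (59.8 to 216), and MMP1, the interstitial collagenase, had 435 UMIs in the high-ratio and 1 in the low-ratio bin, a ratio of 436 with an interval of 77.9 to 17277. Of the proteolysis list 9 of 21 genes were at least 2-fold higher and 0 lower. TIMP1, an inhibitor of these proteases, was 3.28-fold higher (3.13 to 3.43). Of all members' UMIs, 1 barcode held 12.5% for MMP13, 21.2% for MMP12 and 17.3% for MMP1.

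The proteases were also found outside the members. MMP13 stood at 2184 CPM in the 142 graft barcodes that met no rule, 108 CPM in macrophage and 4.90 CPM in endothelial barcodes. MMP12 stood at 305, 156 and 2.35 CPM in the same groups. The macrophage genes of the rule summed to 203, 953, 334 and 82.0 CPM in bins 1 to 4, but the rule ties that sum to the smooth muscle sum, which was smallest in bin 4. The macrophage list outside the rule summed to 161, 231, 274 and 215 CPM in bins 1 to 4, with medians per barcode of 40.5, 74.1, 64.5 and 125 CPM, highest in bin 4, and its part in the protease values was not tested. Without the 83 members that held 3 or more macrophage UMIs, the log2 ratio between the ends was 8.52 for MMP13 and 6.36 for MMP12, against 7.74 and 6.07 with them. MMP9 (gelatinase B) was at 71.4 CPM in members and 814 CPM in macrophage barcodes, with 42.1% of the members' UMIs in 1 barcode.

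Most fibroblast markers moved along the same order, but not all. DCN stood at 148, 352, 602 and 2277 CPM in bins 1 to 4 and LUM (lumican) at 142, 274, 542 and 1849 CPM, and the fibroblast list summed to 1335, 2401, 3168 and 6429 CPM. Of its 13 measured genes 9 were at least 2-fold higher in the high-ratio bin and 1 lower. Members with 3 or more MFAP5 UMIs numbered 0, 18, 12 and 5 in bins 1 to 4. Only 1 member, in bin 2, held 3 or more PI16 UMIs. SCARA5, a ferritin receptor of adventitial fibroblasts, had 119 UMIs in the high-ratio and 0 in the low-ratio bin, at least 39.8-fold higher against a floor of 3 counts. GSN (gelsolin) was 3.62-fold higher (2.99 to 4.41). The smooth muscle sum behind the rule was at least 20 UMIs in 37, 36, 36 and 15 members of the bins. The smooth muscle label thus rests on fewer transcripts at the high-ratio end, where the fibroblast list summed highest. Whether these barcodes are smooth muscle cells with a synthetic profile or fibroblasts with some contractile RNA cannot be told apart from these counts. Of the 166 members 147 held 3 or more UMIs of DCN, LUM, PDGFRA, PI16, MFAP5 and SFRP2. Among the other 19, with 4 barcodes at each end, MYH11 had a log2 ratio of -2.11 and MMP13 of 3.49, ACTG2 of -0.38 and ELN of -0.15, against -3.86, 7.74, -5.88 and -2.66 among all members. There MMP12 turned to -2.91, GSN to -0.27, CALD1 to 0.89, COL4A2 to 0.65, the contractile list's median to 0.11 and the basement membrane list's to 1.33.

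**Figure D3:**
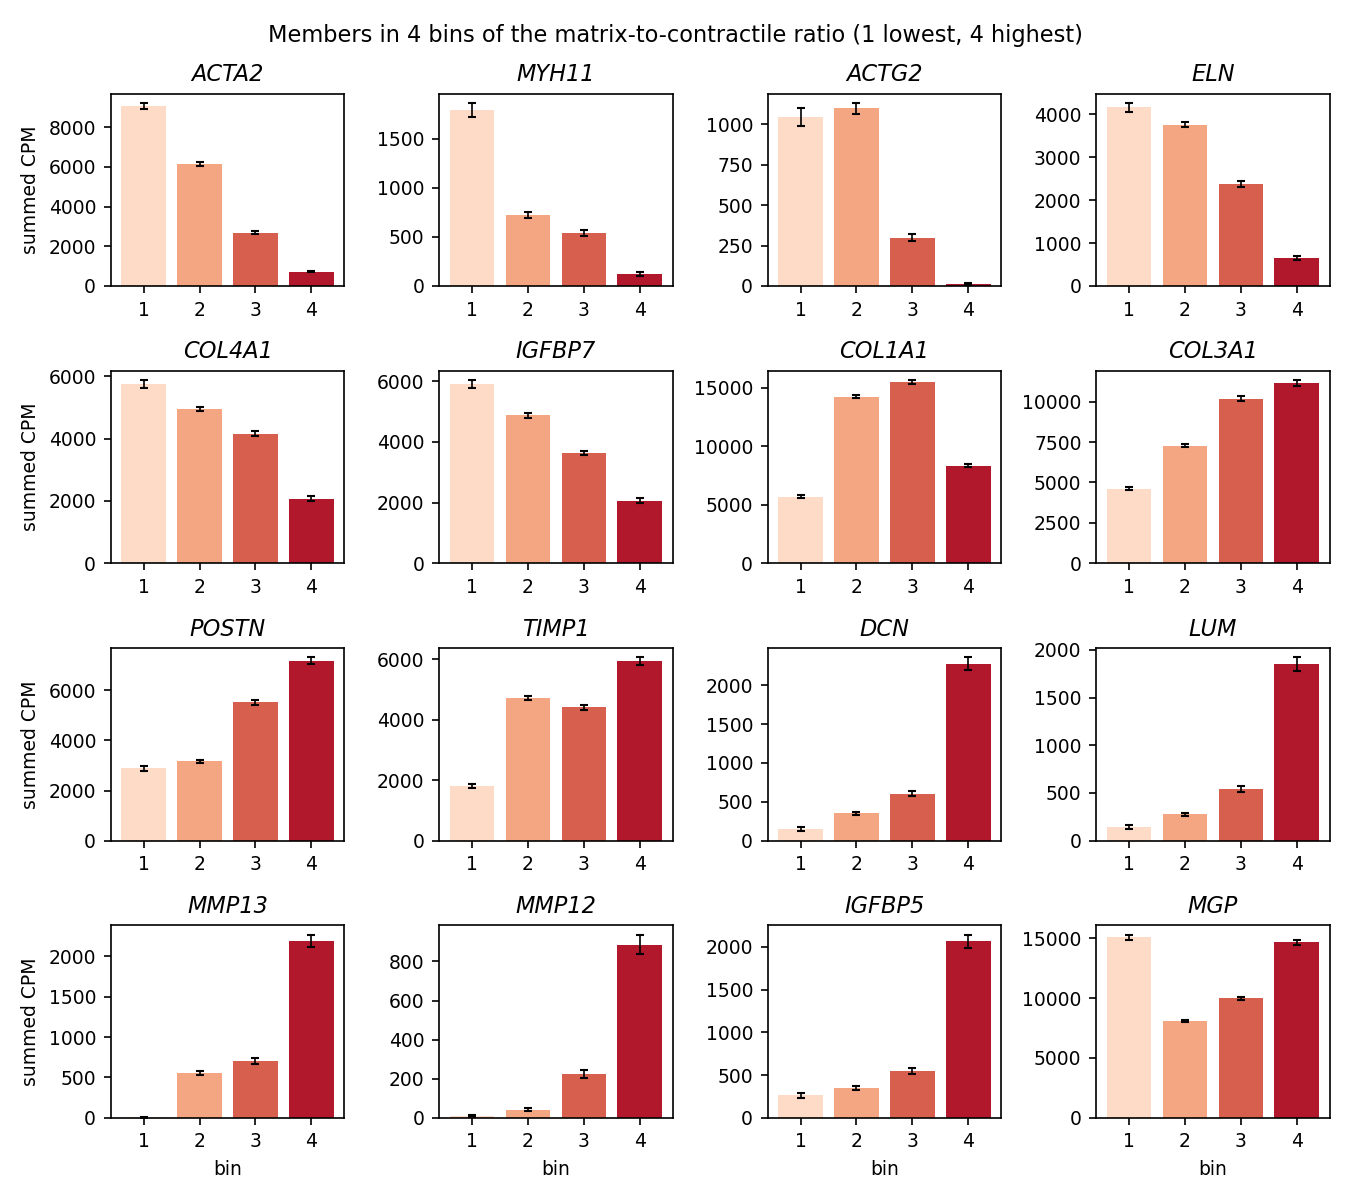
Summed CPM of 16 genes (y, linear axis from 0) in the 4 bins of members by matrix-to-contractile ratio (x, 1 lowest, 4 highest), with exact 95% Poisson intervals that cover counting error only. ACTA2, MYH11, ELN, COL4A1 and IGFBP7 fall from bin 1 to bin 4, and COL3A1, POSTN, DCN, LUM and MMP13 are highest in bin 4. The COL1A1 sum, which weights deep barcodes more, peaks in bin 3, and MGP is lowest in bin 2.

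The remaining genes with the highest ratio between the ends were SERPINF1, GRM8, MXRA5, CNTNAP5, TENM4, FGL2, PLXDC1 and TMEM178B. MXRA5, a matrix remodelling protein, was 35.4-fold higher (23.8 to 55.0) and was detected in 9, 33, 33 and 39 members of the 4 bins. SERPINF1 encodes a secreted serpin and had 310 UMIs in the high-ratio and 2 in the low-ratio bin. GRM8, a glutamate receptor, had 182 UMIs in the high-ratio and 0 in the low-ratio bin, with 40.3% of all members' UMIs in 1 barcode. IGFBP5, another IGF-binding protein, was 7.81-fold higher (6.99 to 8.75).

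Besides ACTG2, the lowest were PRLH, CXCL10, A2M, RCAN2, CCL19, CENPF, CPE, NTRK3, IGF2, PPP1R9A and ENO3. Several rested on few barcodes. For CXCL10, a chemokine induced by interferon, 1 barcode held 93.5% of the members' UMIs, and for CCL19 1 barcode held 58.0%. PRLH was found in 8 members. RCAN2, a regulator of calcineurin, was more widespread, with UMIs in 26, 22, 12 and 7 members of bins 1 to 4, and A2M, a protease inhibitor, with 23, 14, 11 and 1. IGF2, a growth factor, was 15.0-fold lower (10.3 to 22.6). Of the cell cycle list 7 of 18 genes were at least 2-fold lower in the high-ratio bin and 0 higher, and members with 3 or more UMIs of TOP2A, CENPF and TPX2, genes of dividing cells, numbered 13, 16, 9 and 5 in bins 1 to 4. Growth factors and their binding proteins went more often the other way, with 9 of 21 higher and 4 lower. FGF7, a growth factor of stromal cells, and RUNX2, a factor of bone-forming cells, were chosen after their values were seen. FGF7 was at 284 CPM in the high-ratio and 59.3 CPM in the low-ratio bin, and RUNX2 at 245 and 26.3 CPM.

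**Figure D4:**
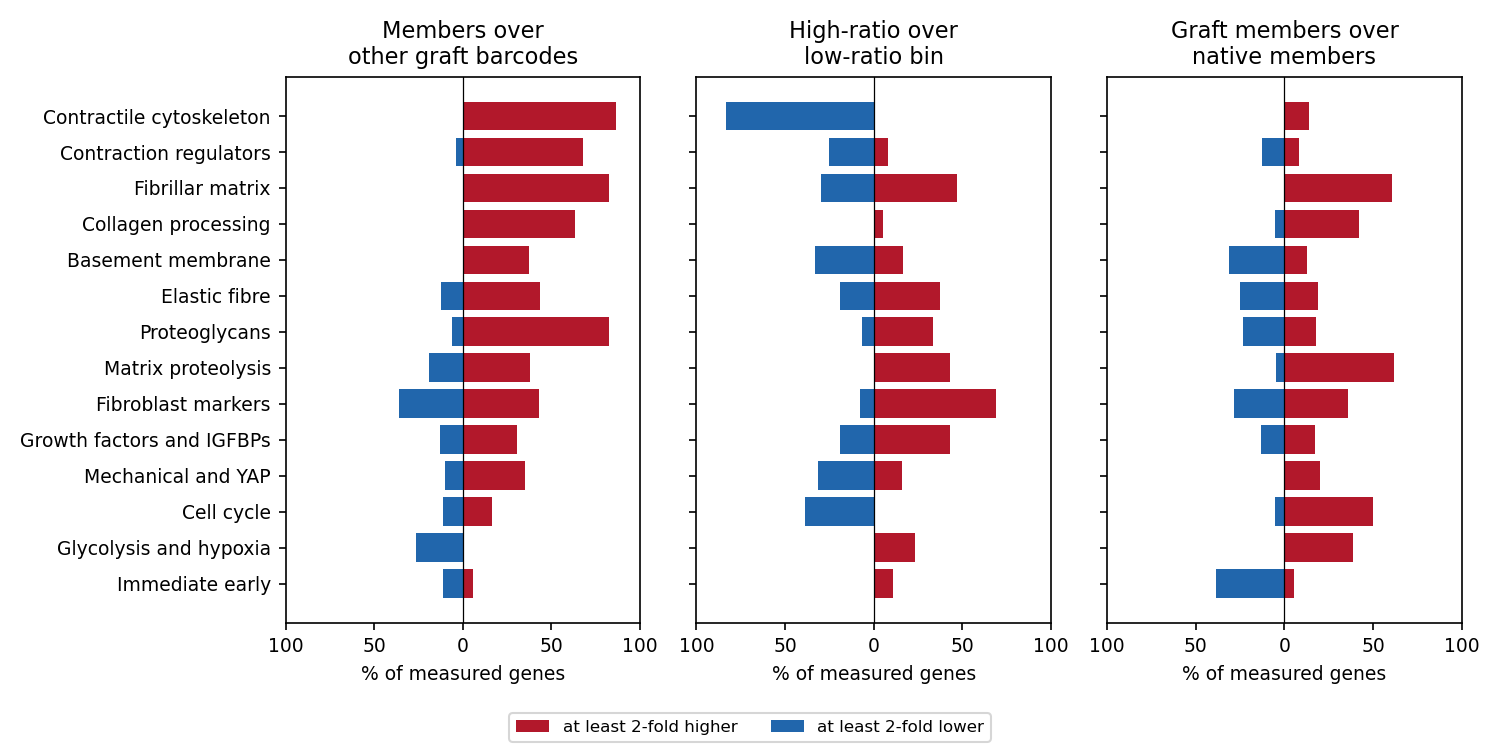
Percent of measured genes of 14 lists at least 2-fold higher (right) or lower (left) in members over other graft barcodes, in the high-ratio over the low-ratio bin, and in graft over native members. In the middle panel 15 of 18 contractile genes are lower and 9 of 21 proteolysis genes higher; the first panel shows groups the rule chose on the same counts.

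Some barcodes lay close to the rule's limits. The 7 lowest members had a smooth muscle sum of 3 to 5 UMIs, 35 of 6 to 19, 34 of 20 to 99 and 90 of 100 or more. The members at 6 to 19 UMIs had 158 CPM of ACTA2, 2457 of DCN and 2022 of MMP13, against 5877, 351 and 369.7 CPM in the members at 100 or more. Just outside were 12 barcodes with a sum of 2 UMIs that was still at least 2 times each other list's. They had 6694 CPM of COL1A1, 2056 of DCN and 22.3 of MYH11. The sum was 2 to 3 times the next list's in 16 members, with 341 CPM of MYH11, and 1 to 2 times it in 22 barcodes left outside, with 423 CPM. At any ratio, 17 barcodes with 100 or more smooth muscle UMIs failed the comparison with another list, some of them among those 22, and carried 2203 CPM of the macrophage gene C1QA and 524 of MYH11.

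The same rule in the artery asks how graft smooth muscle differed from native smooth muscle. Of 13663 genes 1209 were at least 2-fold higher in graft members (8.85%) and 1058 lower (7.74%). The members of both tissues were chosen on contractile genes, so similar levels of those genes follow in part from the rule. Depth differed strongly, with medians of 32337 and 6078 UMIs.

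Of the contractile list 3 of 22 genes were at least 2-fold higher in graft members and 0 lower, 18 had a ratio above 1, and the median log2 ratio was 0.41. MYH11, which the rule used in both tissues, was at 747 CPM in graft members and 2224 CPM in native members, 2.98-fold lower (2.81 to 3.15), and after thinning it was detected in 45.8% of graft and 77.8% of native members. ACTG2 went the other way, at 697 CPM in graft members and 67.2 CPM in native members, 10.4-fold higher (7.69 to 14.3). Even the low-ratio bin of graft members, the most contractile one, had 1795 CPM of MYH11 and 1046 CPM of ACTG2. The integrin gene ITGA8, active in contractile cells, was 23.0-fold lower (19.2 to 27.5). PLN (phospholamban), which regulates calcium uptake and was chosen after its value was seen, was at 28.7 CPM in graft members and 231 CPM in native members. Compared at 1000 UMIs per barcode, the matrix-to-contractile ratio had a median of 7 in graft members and 3.16 in native members. Membership was still set at full depth, where the rule's minimum is a smaller share of the deeper graft barcodes. Applied to thinned barcodes, the rule kept 111 graft and 51 native members, so the comparison is not matched for depth in who was a member.

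The prolyl hydroxylase P4HA2, which stabilises collagen, was 5.68-fold higher (4.34 to 7.57) in graft members, and 8 of 19 collagen-processing genes were at least 2-fold higher. The transcription factor RUNX1 was at 586 CPM in graft members and 60.9 CPM in native members, 9.62-fold higher (7.03 to 13.5), with 1203 CPM in graft macrophage barcodes. LUM was 9.25-fold higher (6.78 to 13.0) while DCN stood at 695 and 715 CPM in graft and native members. The basement membrane list was split, with COL4A1 2.48-fold higher (2.34 to 2.63) whereas the laminin gene LAMA2 was 168-fold lower (104 to 288). IGFBP3 was 17.2-fold lower (14.7 to 20.2), and SERPINE2, an inhibitor of thrombin and plasmin, 5.16-fold lower (4.64 to 5.73).

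The other genes with the highest ratio were MMP13, GRIP1, TMEM132D, ANKRD1, MMP12, NEGR1, NRG3, COL12A1, THBS1 and DLGAP1. GRIP1 had 0 native UMIs and was at least 69.8-fold higher against a floor of 3 counts. ANKRD1, a stretch-responsive gene, was 63.4-fold higher (34.5 to 132) at 990.2 CPM in graft members, but stood at 1876 CPM in graft endothelial barcodes. THBS1 (thrombospondin 1) was 34.6-fold higher (24.3 to 50.9). The lowest, beside LAMA2 and ITGA8, were OGN, MDGA2, WIF1, AOX1, PDZRN4, C1QTNF7, ZBTB16 and HPGD. OGN (osteoglycin) was 359-fold lower (235 to 576), at 221 CPM in the other native barcodes. Of the macrophage genes beyond the rule, 9 of 9 were at least 2-fold higher in graft members, beside 8.85% of all genes. They summed to 229 and 12.5 CPM in graft and native members. Among the remaining barcodes within the limits, the same genes summed to 2537 CPM (graft library) and 465 CPM (native library). The libraries thus differed in the same direction outside the members, and the part of free RNA or shared droplets in the 9 of 9 was not tested. Without members that held 3 or more macrophage UMIs, the log2 ratio was 3.03 for RUNX1, -1.55 for MYH11 and 2.18 for ACTG2, against 3.16, -1.57 and 3.28 with them.

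**Figure D5:**
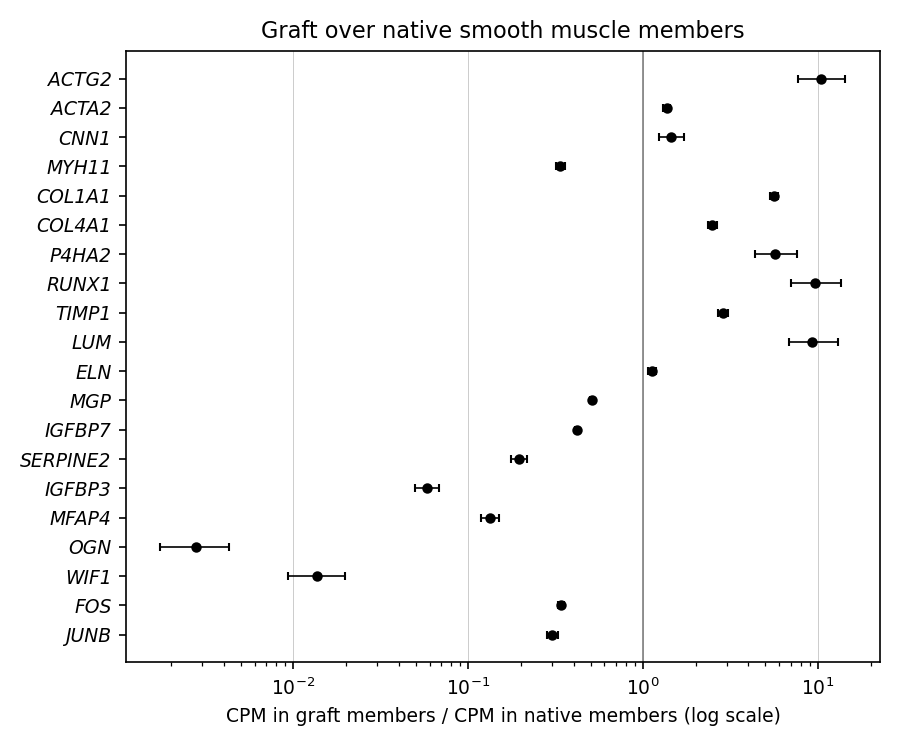
Ratio of CPM in graft members over CPM in native members (x, log axis) for 20 genes, with exact 95% intervals that cover counting error only; the vertical line marks equal levels. ACTG2 (10.4), RUNX1 (9.62) and LUM (9.25) lie highest, MYH11 is at 0.336, and OGN lies lowest.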

How the data were processed

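Each tissue's deposited file holds UMI counts, raw whole numbers that, per the file headers, came from Cell Ranger 7.2.0. Seurat 5.0.0, R 4.3.3 and bcl2fastq 2.20.0.422 stand in the submitters' processing notes with no role given. A genome build is not given in the sources used here. Of 21890 genes 6435 have no symbol, and they held 19.0% of graft and 22.9% of native UMIs. A symbol on more than 1 row (20 symbols) was kept on the row with more UMIs. The graft library held 36238351 UMIs and the native library 43183715.

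The members, gene lists and tests were chosen with earlier results of these data known. Counts were summed over each group's barcodes and scaled to CPM. Log2 ratios were taken after adding 5 CPM, over genes with at least 10 UMIs on both sides together, and a gene at 2-fold or more was counted. Ratios carry exact conditional binomial 95% intervals of the unadjusted CPM, sums Poisson and shares Clopper-Pearson ones. The text names the marker genes and the highest and lowest log2 ratios of genes with a symbol that reached 50 CPM and 30 UMIs on the higher side (12 and 6 against other graft barcodes, 12 and 12 between the ends, 10 and 10 against native members). Not eligible were genes of the member rule, globins, antibody genes, mitochondrial genes and those of ribosomal proteins, nor the ordering genes between the ends, nor genes higher in members whose level there was under that of the library's other barcodes divided by 4. It also names up to 4 genes per list, those of highest mean CPM; any other gene named was chosen after its values were seen. Scrublet in scanpy 1.11.5 marked 2 graft barcodes (0.163%) and 0 native ones at its automatic threshold, which is not a working call, so none was removed. Python 3.11.15, numpy 2.4.6, pandas 2.3.3, scipy 1.17.1 and matplotlib 3.10.9 were used. The ratio arithmetic was run on simulated Poisson counts with set fold changes. Both sides were drawn from the same summed profile, without spread between barcodes, free RNA or selection by the rule. That run therefore bears on counting error only. Alternatives changed the limits on barcodes, the rule, the CPM added, the gene minimum, the weighting, the depth, the ordering and the comparison group.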

Additional observations from a re-analysis of the deposited data

Results flagged for a closer look

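Outside the limits on UMIs and mitochondrial share, 28 graft barcodes met the smooth muscle sum and its comparison with the other lists. They stand in barcodes that no comparison above used. Their median depth was 949.5 UMIs, and they carried 1324 CPM of ACTA2, 597 CPM of MYH11 and 3412 CPM of COL1A1.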

How the results depend on the processing

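The counts of genes at 2-fold depended on the CPM added and on depth. With 1 CPM added in place of 5, 2511 genes were higher and 1739 lower in graft against native members, and 1454 higher and 2537 lower in members against other graft barcodes. With 20 CPM added these were 450 and 416, 537 and 855, and between the ends 344 and 271. With each barcode thinned to 1000 UMIs, 720 were higher and 572 lower in graft against native members, and 228 and 216 between the ends. Between the ends, genes of at least 50 UMIs gave 455 higher and 357 lower, 3 bins in place of 4 gave 416 lower, and the rule on thinned barcodes 417 lower. Against macrophage barcodes alone 1616 genes were higher in members. Leaving out members with 3 or more macrophage UMIs kept 83 members and gave 1169 genes higher between the ends. The 19 members without 3 or more fibroblast UMIs gave 398 higher and 1067 lower. Counting only values of at least 2-fold, the direction there turned for CALD1 (0.89), COL4A2 (0.65), ENO3 (2.56), GSN (-0.27), MMP12 (-2.91), NFKB1 (-1.84), S100A4 (-4.78), the contractile list (0.11) and the calcification list (-0.92), as log2 ratios with 4 barcodes at each end. The rule on thinned barcodes turned CCL2 (-0.91) and ENO3 (0.41) between the ends and DCN (-0.021) against other graft barcodes. With 3 bins in place of 4 the direction turned for CNTNAP5 (-0.15), and leaving out members with macrophage UMIs turned CXCL10 (1.89). Against endothelial barcodes alone the log2 ratio was 0.63 for the carboxypeptidase M gene, 0.080 for FABP4, 0.40 for MSR1, 0.089 for the interferon list and 0.68 for the macrophage list. Against macrophage barcodes alone it was 1.06 for NOS3, 0.51 for SELP and 0.75 for the endothelial list. The cause of these turns was not tested, except that a narrower comparison group or fewer members changes what is compared. Values under 2-fold changed sign more often, 34 of the 98 gene and list values between the ends, 18 of 99 between graft and native members and 14 of 82 against other graft barcodes. Among the 19 members without 3 or more fibroblast UMIs they included NFKBIA (-7.04), CCN1 (1.91), PKM (-1.61) and the mechanical (2.12), basement membrane (1.33), lipid (-3.25) and glycolysis (-1.62) lists. Between graft and native members, leaving out members with macrophage UMIs gave -0.091 for CNN1, -0.40 for ELN, 0.71 for RGS5 and 0.54 for DCN, against 0.52, 0.16, -0.26 and -0.04 with them. No value of at least 2-fold turned there in the alternatives run. Of the single-gene values, 898 of 1136 there, 884 of 1400 between the ends and 419 of 969 against other graft barcodes moved little. That is a move no larger than the log2 distance from the middle of the counting interval to its end. A fixed limit was used where an interval had no finite log2 end. Leaving out barcodes over 100000 UMIs and taking as comparison other graft barcodes with at most 2 smooth muscle UMIs were alternatives chosen after seeing the data, and neither turned a value of at least 2-fold or moved a count of genes by 1.5 times. No paired analysis was possible because each tissue gave 1 library. Depth limits the native side most, where 72 members held 640153 UMIs.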

Other observations

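Several other gene groups differed between the libraries, in smooth muscle members and in the remaining barcodes. Over all 13663 genes, 8.85% were at least 2-fold higher in graft members than in native members and 7.74% lower. Of the immediate early genes, which cells switch on within minutes of a stimulus or of dissociation, 7 of 18 were at least 2-fold lower in graft members and 1 higher. FOS stood at 1983 CPM in graft members and 5864 CPM in native members, and JUNB at 496 and 1640.2 CPM. Within the graft FOS hardly followed the span, at 2499 CPM in the high-ratio and 2429 CPM in the low-ratio bin. Of the glycolysis and hypoxia list 7 of 18 genes were at least 2-fold higher in graft members and 0 lower. Among them the enolase gene ENO1 stood at 271 CPM in graft members and 82.8 CPM in native members, and LDHA, the lactate dehydrogenase chain, at 112 and 46.9 CPM.

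WNT genes were more often lower than higher in graft members, with 5 of 12 at least 2-fold lower and 1 higher, and 4 of the lower ones encode secreted WNT inhibitors or their relatives. SFRP4 stood at 33.7 CPM in graft members and 451 CPM in native members, and DKK3 at 39.1 and 287 CPM. Of the cell cycle list 9 of 18 genes were at least 2-fold higher in graft members and 1 lower. Its median log2 ratio was 1.01, but it fell as low as 0.098 in the alternatives run. The higher ones include genes of division, such as TOP2A with 446 UMIs in graft members and 0 in native members. Those are raw counts, from 8319223 UMIs in graft members and 640153 in native members. CDKN1A, an inhibitor of division, was also among the higher ones, at 330.4 and 70.3 CPM in graft and native members. Over the other barcodes of each library, the immediate early list summed to 7298 CPM among graft barcodes and 16026 CPM among native ones, the glycolysis and hypoxia list to 3767 and 1924 CPM, the WNT list to 344 and 1329 CPM and the cell cycle list to 1308 and 931 CPM. The genes named here were chosen after their values were seen. Granulocyte genes summed to 85.7 CPM in graft members, where 127 of 166 members held none, and to 0 CPM in native members.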
